A study of Mus musculus with 32 samples.

Results

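Ependymal cells line the ventricles of the brain with an epithelium whose free surface carries bundles of motile cilia. Their beating moves cerebrospinal fluid, and the cells also exchange solutes between that fluid and the tissue. A motile cilium is built on an axoneme, a ring of doublet microtubules around a central pair, in which dynein arms supply the force, radial spokes and the nexin-dynein regulatory complex steer it, and intraflagellar transport delivers the parts. FOXJ1 and factors of the RFX family switch on the genes that encode this machine.

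The cells described here were picked out of single-cell libraries by 7 genes of that machine or of ependyma, namely Ccdc153, Tmem212, Foxj1, Ak7, Rsph1, Tppp3 and Rarres2. A barcode was taken as an ependymal cell when it held at least 5 unique molecular identifiers (UMIs, each a count of 1 captured RNA molecule) over these genes and at least 3 of them were detected. Of 5965 barcodes with at least 500 UMIs, at least 300 genes and at most 5% mitochondrial UMIs, 109 (1.83%) met the rule, 56 from cortex and 53 from hippocampus. They came from 23 of 32 libraries and from all 16 mice.

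The libraries were made from 15-month-old female mice that were either hemizygous for Tg2576, a transgene for human APP with the Swedish mutation driven by the prion promoter, or wild-type (WT) littermates on the same mixed B6/SJL background. Mice drank water alone (vehicle) or water with PMX205, an antagonist of the complement receptor C5aR1, for 12 weeks. This gave 5 WT-vehicle and 3 WT-PMX205 mice, and 4 mice in each of the Tg2576-vehicle and Tg2576-PMX205 groups. Each mouse gave 1 cortex and 1 hippocampus library. Cells had been enriched with anti-CD11b and anti-ACSA-2 beads, which bind microglia and astrocytes, so the share of ependymal cells is a share of what the beads held and not of the tissue. Strain labels of the mice do not all match this design: 10 of 16 name a C5ar1 knockout or C5a overexpression, and those of WT-vehicle 4 and Tg2576-vehicle 3 go against their genotype labels. They also call the transgenic line an Arctic model, where the methods name Tg2576. Groups followed the genotype and treatment labels, and no comparison took the strain labels into account.

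Libraries held 17 to 812 passing barcodes (median 120) and 11096 to 892483 UMIs. The ependymal cells had a median of 1499 UMIs (514 to 10222) and 910 genes, against 899 UMIs and 538 genes in the 5856 other passing barcodes, and their median mitochondrial share was 0.400% against 0.658%. The WT-vehicle 1 hippocampus library alone held 22 of the cells (20.2%). Doublet scoring, set to mark the top 6% of each library, marked 359 of the 5965 barcodes and 14 of the 109 cells (12.8%). In 6 pairs, 2 cells of 1 library had barcodes alike in all but their first base and may be single cells, which would leave 103 (51 from cortex and 52 from hippocampus), and 3 cells had a barcode sequence found in more than 1 library, as had 606 of all passing barcodes.

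The rule separated the cells from most other barcodes. The 7 genes together gave 5 to 113 UMIs per ependymal cell (median 18), or 1.204% of their pooled UMIs against 0.0135% elsewhere. All 7 genes were detected in 38 cells, 6 in 26, 5 in 24, 4 in 12 and 3 in 9. Among the other barcodes 5370 held none of these UMIs, and 70 held 3 or 4. Just inside the limit lay 6 cells with 5 or 6 UMIs, and just outside it lay 9 barcodes with 3 or 4 UMIs over at least 3 genes. A further 25 barcodes reached 5 or more UMIs, up to 12, but over 1 or 2 genes, and in 23 of them Tppp3 or Rarres2 gave most of these.

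Because these genes chose the cells, their levels are a description. In counts per 1000000 UMIs (CPM, over the pooled cells), Foxj1 stood at 1224 in ependymal cells and 4.26 in the other barcodes, and Ccdc153, a coiled-coil protein gene used as an ependymal marker, at 2626 and 5.63. Tmem212 stood at 2353 and 8.22, Ak7, an adenylate kinase of cilia, at 1129 and 5.63, and Rsph1, a radial spoke head protein, at 1022 and 4.41. Tppp3, which promotes tubulin polymerization, was at 1630 and 42.8, and Rarres2, which encodes the secreted protein chemerin, at 2060 and 63.6. Foxj1 was detected in 78.9% of the ependymal cells and in 0.410% of the others.

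Beyond these genes, the cells differed from the other barcodes over much of the transcriptome. Since the cells were chosen by counts in the same contrast, no test was made of it. Of 13468 genes with at least 20 UMIs in the passing barcodes, 1194 (8.87%) were at least 4-fold higher in pooled ependymal cells and 985 (7.31%) at least 4-fold lower, with a median log2 ratio over all these genes of 0.07. With each mouse counted equally the numbers were 1544 higher and 190 lower. Those counts averaged the log2 ratios of single mice after a fraction of a UMI was added to every count. The parts of the weighting and of the added fraction in the lower count were not separated. In 7 mice with at least 5 ependymal cells each, which together held 93 of the 109, 323 genes (2.4%) were higher in all 7, and 217 genes were both at least 4-fold higher and higher in all 7. A 16-fold excess was reached by 429 genes. Of the 1194 genes 1041 were in no list used here, and 70 were genes known only by a RIKEN clone name, out of 497 such genes measured (14.1%).

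Of 91 measured genes in 5 lists of axoneme parts, 79 were at least 4-fold higher, none was at least 4-fold lower, and the median log2 ratio was 5.44. The lists were written with earlier results of these data known, so the counts describe the cells and are no independent evidence of their identity. The plot of log2 ratios by list shows each list against the others.

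**Figure D1:**
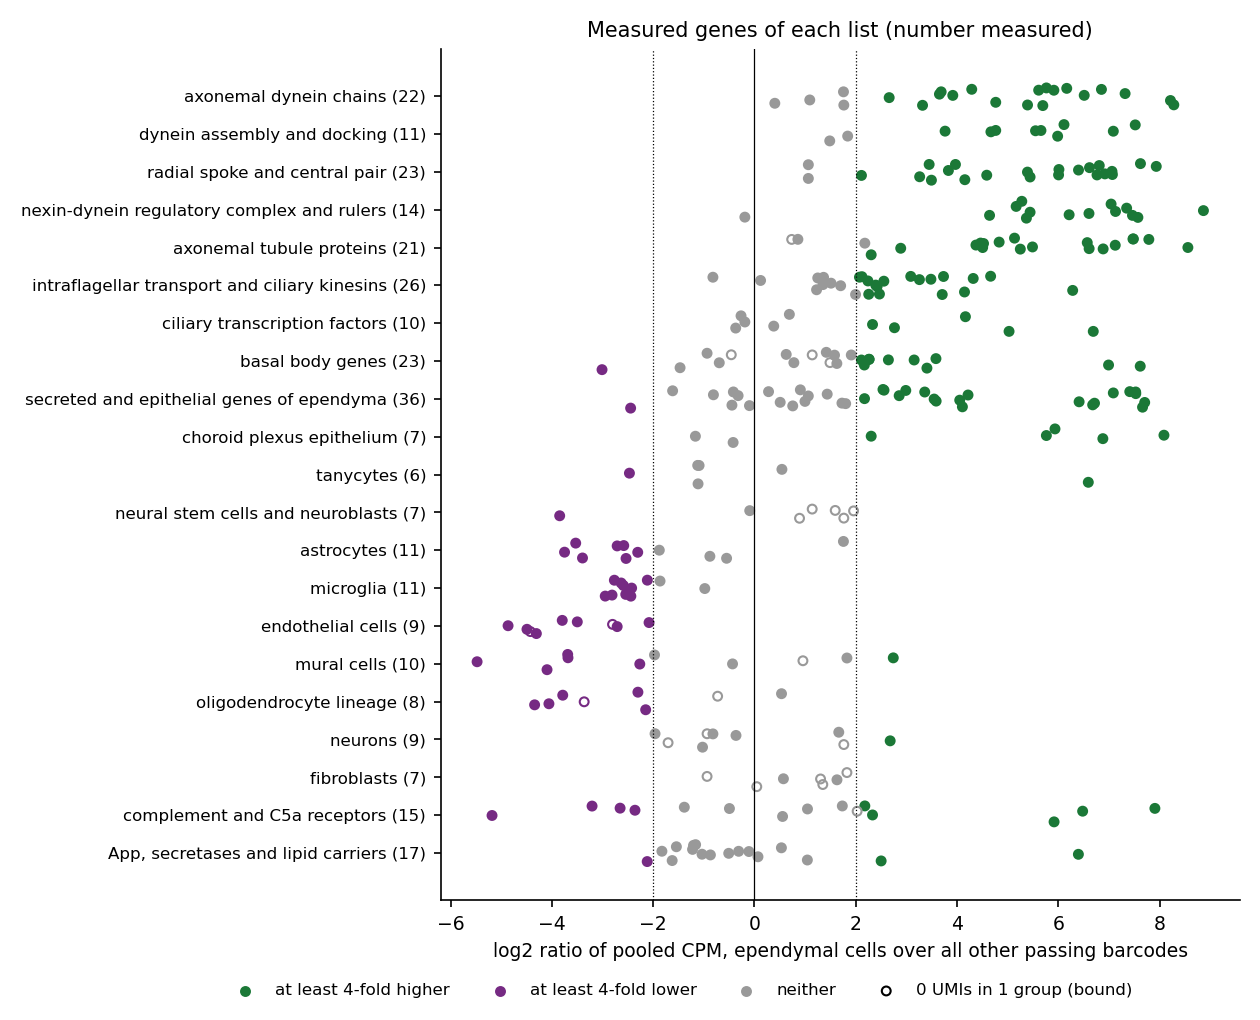
Log2 ratio of pooled CPM in the 109 ependymal cells over that in the 5856 other passing barcodes (horizontal axis) for each measured gene of each list (rows, 1 dot a gene; open dots had 0 UMIs in either group and are bounds), with dotted lines at 4-fold. Dots of the axoneme lists lie far to the right (list medians 5.08 to 6.41) and those of microglial and endothelial markers to the left, and the grey dots just above 2 had too few UMIs in the ependymal cells to be counted as 4-fold higher.

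Dynein chains, the motors of the axoneme, were higher in 18 of 22 measured genes (median log2 ratio 5.08). Summed over the list they reached 4885 CPM in ependymal cells and 220.0 in the others. Dnali1, an inner-arm light intermediate chain (chr4:125055338-125065703, minus strand, mm10), stood at 323 CPM in the lowest, 569 in the median and 1431 in the highest of the 7 mice, and at 678 against 2.28 CPM in the pool, a 297-fold difference. It was detected in 55.0% of the ependymal cells and 0.188% of the others. Every mouse's ependymal cells lay above the other barcodes of that mouse. Wdr63, an intermediate chain, reached 426 against 1.37 CPM (311-fold; 157, 370 and 657 in the lowest, median and highest mouse), and Dynlrb2, a roadblock light chain, 778 against 4.87 (160-fold; 508, 825 and 1138). Among the heavy chains, Dnah9 was at 389 and 38.96 CPM, Dnah6 at 339 and 5.63 and Dnah5 at 306 and 4.26. Counts of Dnah7a, Dnah7b and Dnah7c are uncertain because these copies are nearly identical.

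The proteins that assemble dyneins in the cytoplasm or dock them on the doublet followed, with 9 of 11 measured genes higher (median 5.55) and 1369 against 64.5 CPM in sum. Zmynd10, an assembly factor, was at 186 against 1.37 CPM (136-fold), and Armc4, which the docking of outer arms needs, at 207 against 4.41 (46.9-fold). Ccdc114 and Ccdc151, parts of the docking complex, stood at 182 against 7.15 and 174 against 2.74 CPM.

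Radial spoke and central pair genes were higher in 21 of 23 (median 5.44; 5323 against 270.0 CPM in sum). Spag6l, a central pair protein, was at 116, 394 and 550 CPM in the lowest, median and highest mouse, with 360 against 1.83 in the pool (197-fold), and was detected in 36.7% of the cells. Cfap54, also of the central apparatus, reached 612 against 6.24 CPM (98.1-fold), and Hydin, whose loss causes hydrocephalus, 364 against 8.67 (41.96-fold). Nme5 of the radial spoke was at 447 against 3.35 CPM and the spoke head gene Rsph4a at 327 against 2.43. Cfap20, which is not confined to motile cilia, was also well represented in the other barcodes (364 against 84.2 CPM, 4.33-fold).

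Genes of the nexin-dynein regulatory complex and of the rulers that set its spacing were higher in 13 of 14 (median 6.41; 3086 against 50.2 CPM). Iqca stood at 426 against 0.913 CPM (467-fold), although in 1 of the 7 mice it was not higher. Drc3 was at 401 against 3.04 CPM (132-fold) and Ccdc65, another subunit, at 203 against 1.07 (190-fold). Maats1, also in this list, reached 294 against 3.96 CPM.

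Of the proteins on or inside the doublet tubules, 18 of 21 were higher (median 5.14; 6891 against 218 CPM). Tubb4b, the tubulin of axonemes, was detected in 87.2% of ependymal cells and 6.78% of the others, with 1481, 1801 and 3220 CPM in the lowest, median and highest mouse and 1861 against 89.8 in the pool (20.7-fold). Enkur was at 517 against 2.89 CPM (179-fold), Cfap126 at 654 against 6.70, Cfap161 at 459 against 1.22 and Tekt1, a tektin, at 360 against 3.04. Tubb4b is also made by cells without motile cilia, and its fold was the smaller for its level in the other barcodes. Tuba1a and Tubb3, tubulins that brain cells normally make, gave 6 and 0 UMIs in all 5965 barcodes, and Gfap gave 1 UMI in 1344 barcodes with astrocyte markers. A gene at or near 0 in these files can therefore not be read as a gene that the cells did not express.

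Transport and basal body genes, which the primary cilia of other cells also use, stood less far apart. Intraflagellar transport and ciliary kinesin genes were higher in 17 of 26 (median 2.33; 4062 against 715 CPM), among them Ift88 (298 against 14.9 CPM, 20.0-fold), Ift22 (376 against 28.3, 13.3-fold) and the kinesin Kif9 (285 against 11.3, 25.3-fold). Ttc30a1 and Ttc30b are near-identical copies, and their split is uncertain. Basal body genes were higher in 10 of 23 (median 1.63). Odf3b reached 658 against 3.35 CPM (196-fold), the centrins Cetn2 and Cetn4 542 against 51.1 and 368 against 2.89, and Cby1, which helps basal bodies dock, 170 against 35.3, whereas Cep152, needed to build new centrioles, gave 1 UMI and was 8.06-fold lower (95% exact counting interval 1.43 to 319.7-fold).

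Transcription factors of ciliated cells were higher in 5 of 10 (median 1.51). Myb, which acts early in multiciliated cells, was at 157 against 1.52 CPM (103-fold), Trp73, the gene of p73, at 124 against 3.804 (32.6-fold) and Rfx2 at 145 against 8.07 (17.95-fold). Rfx3 and Rfx4 did not reach 4-fold, at 86.9 against 53.9 and 103 against 79.4 CPM.

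RFX factors bind a motif called the X-box, so the RefSeq promoters of mouse genes (GRCm38.p6, 250 bases before to 50 after the start) were searched for GTNNCC, 0 to 3 bases and NGNAAC on both strands. The pattern is loose and was present for 5.94% of the 27025 genes in the table, a gene with several promoters counting once, and for 7.23% of the 10299 measured genes among them. It was present for 19.1% (175 of 918) of genes at least 4-fold higher in ependymal cells, for 26.2% (86 of 328) of those at least 16-fold higher, for 3.66% (28 of 764) of those at least 4-fold lower and for 6.29% (542 of 8617) of those in neither. The share was thus larger the larger the fold. Of 75 axoneme list genes with a promoter in the table, 29 (38.7%) held the X-box. For the forkhead motif TGTTTAC, which FOXJ1 and many other forkhead proteins can bind, the shares of genes were 4.05% of the table, 3.14% of measured genes, 4.79% of the 4-fold higher, 7.62% of the 16-fold higher and 3.66% of the 4-fold lower genes. Of the 75 axoneme genes 3 (4.0%) held it, about the share over the whole table. A match is a description of letters and not evidence of binding.

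**Figure D2:**
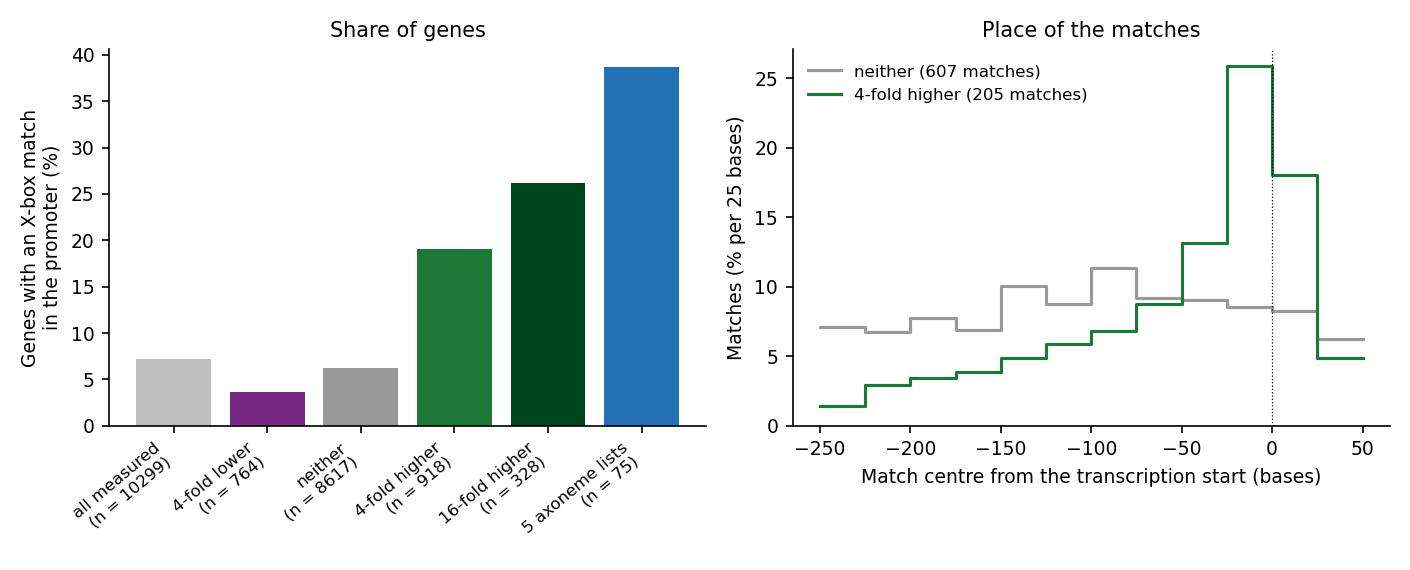
Left, percent of genes with an X-box match in a promoter for sets of measured genes, as bars; right, distance of the match centre from the transcription start (bases) against the percent of matches in each bin, for genes 4-fold higher in ependymal cells and for genes that were neither higher nor lower. The share is 19.1% in genes at least 4-fold higher and 6.29% in genes that were neither, and matches of the higher genes gather just before the start.

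Matches in the higher genes also lay closer to the start. Of 205 matches in their promoters 112 (54.6%) had their centre within 100 bases before the start, with a median centre at -25.5, against 232 of 607 (38.2%) and a median of -95 in genes that were neither, and 11 of 31 (35.5%) and -117.5 in lower genes. Of the 32 genes of the 7-gene rule or with the steepest excess, 22 had a promoter in the table, and 5 of them held an X-box match. These 5 are shown, 5′ to 3′ on the strand of the gene with the match in capitals and up to 10 bases on either side. They let the motif be read in genes whose levels are given here. The matches of Spag6l and Ccdc65 fit the pattern only when read on the opposite strand.
Ccdc153, chr9:44240534-44240565, plus strand: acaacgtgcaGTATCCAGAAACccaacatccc
Fam183b, chr11:58801954-58801986, minus strand: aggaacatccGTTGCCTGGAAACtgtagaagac
Spag6l, chr16:16829314-16829339, minus strand: gttgctgtcgGTTGCCCTGGAGACgc
Ccdc65, chr15:98708171-98708203, plus strand: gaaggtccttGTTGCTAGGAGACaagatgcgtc
1700001L19Rik, chr13:68597408-68597440, plus strand: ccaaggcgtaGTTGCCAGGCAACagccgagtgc

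The match of Ccdc153 ends 121 bases before the start, and those of Fam183b, Ccdc65 and 1700001L19Rik 3, 0 and 8 bases before it, while that of Spag6l lies after it. The forkhead motif was present in 3 of the 22, shown in the same way with TGTTTAC in capitals.
Ak7, chr12:105705841-105705867, plus strand: gtagagaaatTGTTTACccaagcagag
Stoml3, chr3:53488605-53488631, plus strand: gaaggtgcttTGTTTACgtttctaggc
Mlf1, chr3:67373971-67373997, plus strand: gccgccagtgTGTTTACagaggttgcc

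Genes of secretion, transport and the epithelial surface were at least 4-fold higher in 20 of 36 and lower in 1 (median 2.55). Their sum went the other way, at 43293 CPM against 53245, and was higher in ependymal cells in 1 of the 7 mice, and Cst3 alone gave 42716 CPM in the other barcodes. Cd24a, a surface glycoprotein used to sort ependymal cells (chr10:43578284-43584265, plus strand), was at 617, 1043 and 1610 CPM in the lowest, median and highest mouse and at 1142 against 5.63 in the pool (203-fold), and was detected in 71.6% of the cells and 0.495% of the others. Dbi, which encodes an acyl-CoA binding protein also known as diazepam binding inhibitor, was detected in 99.1% of the cells, at 6130 against 356 CPM (17.2-fold; 3936, 6258 and 7299 over mice). Vim, the intermediate filament vimentin, was at 2296 against 123 CPM (18.6-fold). Hdc, the enzyme that makes histamine, stood at 591 against 5.63 CPM, Calml4, a protein of brush borders, at 703 against 3.804 (185-fold) and the cadherin-related Cdhr3 at 534 against 2.89. Clu and Cpe, a secreted chaperone and a peptide-processing enzyme that astrocytes also make, did not reach 4-fold (6316 against 3164 and 3553 against 1700 CPM). Neither did the water channel Aqp4 (707 against 377) or the gap junction gene Gja1 (1249 against 1667). Cst3, which encodes cystatin C and is abundant in microglia, was the 1 gene of this list that was lower, at 7842 CPM in the ependymal cells.

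Among the 25 genes outside the rule with the steepest excess, present in at least 20% of the cells and higher in all 7 mice, were several with no cilium part named in the lists. Dmkn, the secreted dermokine, was at 418 against 1.52 CPM (275-fold), Stoml3, a stomatin-like membrane protein, at 447 against 1.83 (245-fold) and Fam183b at 699 against 3.35 (209-fold). Mlf1 stood at 492 against 2.89 CPM (170-fold) and Aebp1, a protein of the extracellular matrix, at 484 against 2.89 (167-fold). 1700012B09Rik led this set, at 521 against 1.22 CPM (428-fold), and 1700007K13Rik reached 773 against 3.50 (221-fold). Among genes outside the rule that were at least 4-fold higher, those with the most UMIs included the chaperone Hsp90ab1, at 2879 against 638 CPM. Chchd10, a mitochondrial protein, was another, at 2734 against 324 (8.45-fold).

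**Figure D3:**
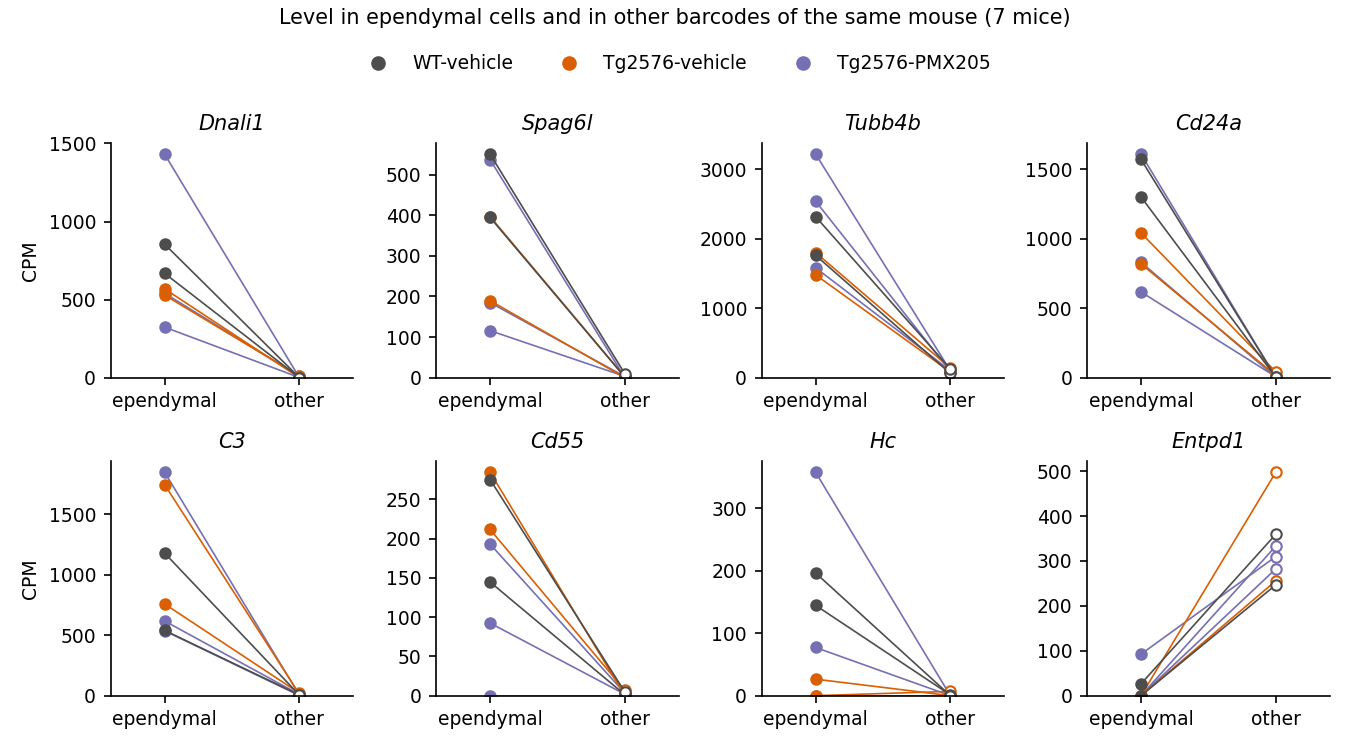
CPM (vertical axis, linear, with its own scale for each gene) of 8 genes in the ependymal cells and in the other passing barcodes of each of the 7 mice with at least 5 ependymal cells, with 1 line joining the values of a mouse. Dnali1, Spag6l, Tubb4b, Cd24a and C3 lie higher in the ependymal cells of every mouse, Cd55 and Hc in those of most mice, and Entpd1 lies lower in every mouse.

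The complement list, of interest because the mice received a blocker of the C5a receptor, split within itself. Of 15 measured genes 5 were at least 4-fold higher and 4 at least 4-fold lower. C3, the central complement component (chr17:57203970-57228136, minus strand), gave 265 UMIs in 69 of the 109 cells and in 12 mice, with at most 21 UMIs in 1 cell. In the 7 mice with at least 5 cells its level was 539 CPM in WT-vehicle 1, 1179 in WT-vehicle 4, 1745 in Tg2576-vehicle 1, 759 in Tg2576-vehicle 2, and 617, 1848 and 537 in Tg2576-PMX205 1 to 3. In Tg2576-PMX205 2, 33 C3 UMIs came from 2 hippocampus cells, both marked as doublets, and its 13 cortex cells stood at 478 CPM. The other barcodes of the 7 mice lay between 1.13 and 20.7 CPM, so that the groups did not overlap. Pooled, C3 was at 1096 against 4.57 CPM (240-fold).

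C3 was detected in 63.3% of ependymal cells and 0.342% of the others, and in 0.427% of 3046 barcodes with microglial markers, whose median depth was 871 UMIs. With each barcode thinned to 500 UMIs the shares were 36.1%, 0.202% and 0.233%. In 1344 barcodes with astrocyte markers C3 was detected in 0.0744%, or 0.0595% after thinning. How much of the share in either kind of barcode came from free RNA was not tested. In 60 ependymal cells without microglial markers C3 stood at 1405 CPM and in 49 with them at 885.

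Hc, which encodes complement C5, the precursor of C5a (chr2:34983331-35061438, minus strand), was at 95.1 against 1.07 CPM (89.3-fold), from 23 UMIs in 15 cells, and was present in 5 of the 7 mice. Cd55, the decay-accelerating factor that limits the C3 convertase, was at 165 against 2.74 CPM (60.4-fold) in 28 cells. C2 and Serping1, which encodes the C1 inhibitor, were also higher, at 20.7 against 4.11 and 45.5 against 10.0 CPM. C4b was at 53.8 against 26.02 CPM and did not reach 4-fold.

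Among the lower genes, the receptor gene C3ar1 was at 20.7 against 191 CPM, Cr1l, a regulator of C3 on cell surfaces, at 16.5 against 84.9. C5ar1, the target of PMX205, gave 1 UMI in the ependymal cells, 4.14 against 26.02 CPM, a 6.29-fold lower level with a 95% exact counting interval of 1.11 to 249.9-fold. C5ar2, at 16.5 against 43.2 CPM, did not reach 4-fold.

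Of 17 measured genes of amyloid processing and lipid transport, 2 were at least 4-fold higher and 1 lower, shares near the 8.87% and 7.31% over all genes, and the median log2 ratio was -0.87. Bace2 (128 against 1.52 CPM), a protease related to beta-secretase, and Aph1b (145 against 25.6), a subunit of gamma-secretase, were the higher ones. App was at 269 against 290.0 CPM and Apoe, which encodes apolipoprotein E, at 12400.2 against 11818.

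Markers of neighbouring cell types were checked because the beads, free RNA and doublets can all bring them in. Choroid plexus epithelium, which shares its origin with ependyma, had 5 of 7 measured genes at least 4-fold higher in the ependymal cells and 7 of its 14 genes at 0. Folr1, a folate receptor, was at 269 against 2.28 CPM (118-fold), Clic6, a chloride channel protein, at 149 against 2.43 (61.2-fold), the transcription factor Otx2 at 116 against 2.13 and Sostdc1, a secreted antagonist, at 82.7 against 0.304. Ttr, transthyretin, the defining secreted protein of choroid plexus, was at 20.7 against 27.7 CPM, with its 5 UMIs in 1 cell, and Kl, Aqp1, Kcnj13, Kcne2, Cldn2, Slc4a5 and Htr2c had no UMI. Of the 109 cells 48 held none of Folr1, Clic6, Otx2 and Sostdc1, 41 held 1, 18 held 2 and 2 held 3.

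Tanycytes, the ependymal relatives in the floor of the third ventricle, were represented by Scn7a, a sodium channel-like gene (294 against 3.04 CPM, 96.5-fold), while their defining factor Rax had no UMI and Lhx2 was lower (24.8 against 137). None of the 7 measured genes of neural stem cells and neuroblasts was higher, and their list summed to 20.7 CPM. Top2a, a marker of dividing progenitors, had no UMI in the 109 cells and had one in 0.324% of other barcodes, a share too low for a difference to be detectable in so few cells.

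Astrocyte genes were split. None of the 11 measured was 4-fold higher and 7 were lower, with the glutamate transporter genes Slc1a2 and Slc1a3 at 558 against 3342 and 649 against 2389 CPM and Aldoc at 534 against 2637. Mlc1, a membrane protein of astrocyte end feet, ran against the list, at 1559 against 461 CPM (3.38-fold) and higher in all 7 mice. The list summed to 5170 CPM in ependymal cells (3748 to 11035 over mice) and 13449 in the others (7408 to 20492), and 72 of the 109 cells held at least 5 UMIs over at least 3 of its genes.

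Microglial RNA was present in many of the cells at a low level. Of 11 measured markers 9 were at least 4-fold lower and none was higher, and they summed to 4723 CPM (1768 to 11228 over mice) against 24759.7 (16596 to 30142.5). Csf1r, the receptor that microglia depend on, was at 633 against 3925 CPM, Ctss at 815 against 5545 and Cx3cr1 at 910 against 1796. In 49 cells at least 5 UMIs fell on at least 3 of the markers, and in the other 60 cells Csf1r stood at 112 CPM. Without the 49 cells the genes at least 4-fold higher numbered 1075 and those lower 874. Endothelial markers were lower in 9 of 9 (161 against 1919.7 CPM in sum) and mural markers in 5 of 10 (625 against 3319), with Acta2 higher (190 against 28.5).

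The lowest ratios belonged to genes of microglia, astrocytes and vessels. Among them were Entpd1, an ectonucleotidase of microglia (20.7 against 350 CPM, 16.9-fold lower), and Cd68, a lysosomal protein of phagocytes (49.6 against 592, 11.9-fold lower). Mfge8, a bridge for phagocytosis made by astrocytes, was at 194 against 1836 CPM. Such ratios depend on what the other barcodes are: against barcodes with astrocyte markers alone, the log2 ratios of Csf1r (0.40) and Vtn (0.96) were positive. Vtn was found in 6 ependymal cells (5.50%), 1 of which held 24 UMIs, and in 5.58% of the barcodes with astrocyte markers.

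The cells were then counted by region. In cortex they made up 0 to 4.26% of the passing barcodes of a mouse (median 0.994%) and in hippocampus 0 to 13.5% (median 0.347%), so the ranges overlapped. The mean was 1.44% ± 1.19 (SD, n = 16 mice) in cortex and 2.78% ± 4.06 in hippocampus, a difference of -1.34 percentage points. A two-sided permutation test over all sign changes of the 16 paired differences gave p = 0.219, or 0.933 adjusted over 5 comparisons of shares. The share was higher in cortex in 10 mice and in hippocampus in 6. The difference lay within the spread between mice, and without WT-vehicle 1 it was -0.574 points (p = 0.439, permutation). In numbers of cells per mouse the mean was 0.188 higher in cortex, which had 4545 passing barcodes in all against 1420 in hippocampus.

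Hippocampus libraries differed widely among themselves. WT-vehicle 1 had 22 ependymal cells among 163 barcodes, or 13.5% (95% Wilson interval 9.09 to 19.6%), where its cortex had 4 of 667 (0.600%). Tg2576-vehicle 1 had 12 of 193 (6.22%, 3.59 to 10.6%), Tg2576-vehicle 2 had 5 of 62 (8.06%, 3.49 to 17.5%) and Tg2576-PMX205 1 had 6 of 83 (7.23%, 3.36 to 14.9%). Another 8 hippocampus libraries had none, and a count of 0 there allows shares of up to 2.26% in the largest and 17.6% in the smallest, taken as 3 counts of the total (upper Wilson limits 2.81% and 18.4%).

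In cortex the cells were spread more evenly, and 15 of 16 libraries had at least 1. The highest shares were 10 of 235 (4.26%) in WT-vehicle 4 and 3 of 81 (3.70%) in Tg2576-vehicle 2. Tg2576-PMX205 2 had 13 of 812 (1.601%), and WT-PMX205 3 had none of 90, which by 3 counts of the total allows up to 3.33% (upper Wilson limit 4.09%). Intervals and limits cover counting error only. How much ventricular wall each dissected piece held was not measured, and a larger piece of wall and a larger share of ependymal cells in the same wall cannot be told apart.

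**Figure D4:**
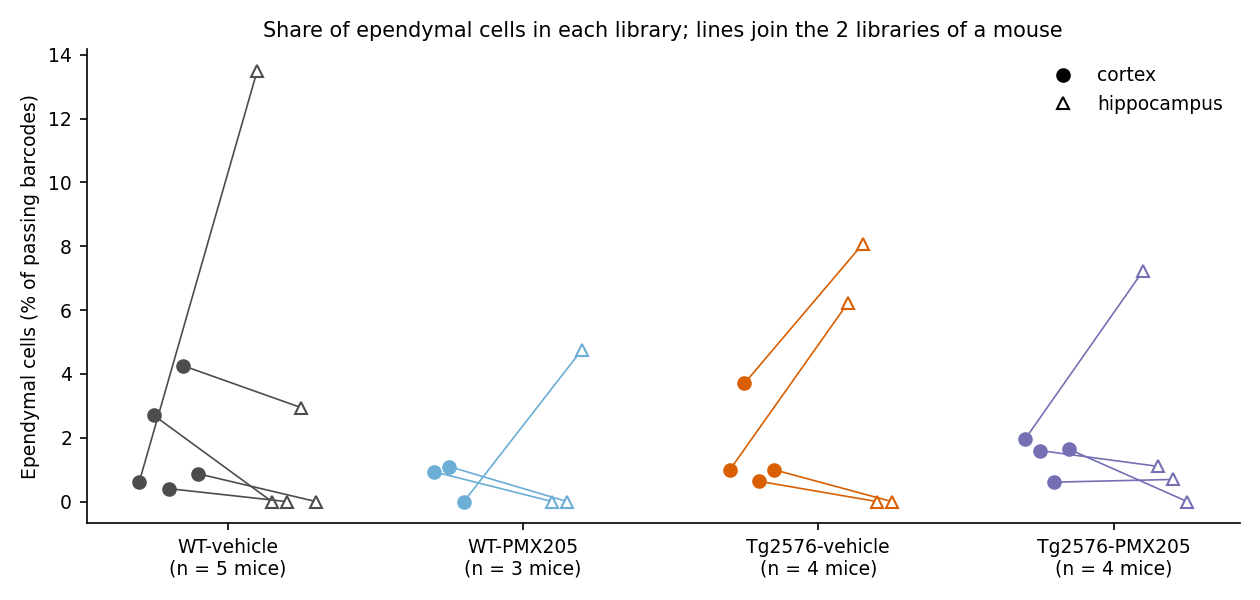
Ependymal cells as a percent of passing barcodes in each cortex and hippocampus library, with 1 line joining the libraries of a mouse and groups of mice set apart. The 4 highest values, from 6.22 to 13.5%, are all hippocampus libraries, while 8 hippocampus libraries lie at 0.

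With both regions of a mouse added, the share did not differ detectably between genotypes or treatments. It was 1.97% ± 1.501 (SD, n = 5) in WT-vehicle, 2.40% ± 2.34 (n = 4) in Tg2576-vehicle, 1.67% ± 1.26 (n = 4) in Tg2576-PMX205 and 0.970% ± 0.476 (n = 3) in WT-PMX205. Exact two-sided permutation tests gave p = 0.746 for Tg2576-vehicle against WT-vehicle (+0.42 points), p = 0.686 for Tg2576-PMX205 against Tg2576-vehicle (-0.73) and p = 0.393 for WT-PMX205 against WT-vehicle (-1.004), each 0.933 after adjustment. Without Tg2576-vehicle 2 the first 2 differences changed sign, to -0.644 and +0.337, and they also did so when numbers of cells were compared (-2.20 and +0.750). The smallest p these designs allow is 0.00794, 0.0286 and 0.0179. The cortex to hippocampus difference did not differ detectably between the 8 Tg2576 and 8 WT mice (p = 0.942, permutation).

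Gene levels within the ependymal cells were compared on UMIs summed over the cells of a library or mouse with at least 5 of them, by the quasi-likelihood test of edgeR, with p-values adjusted after Benjamini and Hochberg over every gene tested. For region this left 4 hippocampus and 2 cortex libraries, which share no mouse, and 299 genes. None passed an adjusted p of 0.05 (0% called), 11 had an unadjusted p under 0.05, and DESeq2 also called 0. For cortex over hippocampus, C3 differed by 0.03 on the log2 scale (SE 0.61, edgeR adjusted p = 0.991).

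The 3 genes with the lowest p by region were Wls, mt-Cytb and Ech1. Wls encodes a carrier of Wnt proteins to the cell surface. It stood at 1840, 603, 1116 and 708 CPM in the hippocampus libraries and at 68.2 and 45.1 in the cortex libraries. Its log2 difference was -3.97 (SE 0.85, edgeR adjusted p = 0.0522). Over all cells it was found in 25 of 53 from hippocampus and 10 of 56 from cortex (749 against 173 CPM), but the 2 ependymal cells of Tg2576-vehicle 3 cortex, a library too small to enter the test, had 1010 CPM. With mice paired over 5 mice with at least 3 cells in both regions, the difference was -2.73 (edgeR adjusted p = 0.719).

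For mt-Cytb, a mitochondrially encoded subunit of respiratory complex III, the levels were 2393, 4224, 957 and 3599 CPM in hippocampus and 955 and 271 in cortex (-2.30, SE 0.60, edgeR adjusted p = 0.189), and with mice paired the difference was -0.05. Mitochondrial UMIs as a whole made up 0.979%, 1.09%, 0.303% and 0.681% of the pooled UMIs of the cells in the tested hippocampus libraries of WT-vehicle 1, Tg2576-vehicle 1, Tg2576-vehicle 2 and Tg2576-PMX205 1, and 1.01%, 1.48%, 0.725% and 0.6245% in the cortex cells of the same mice. In the tested cortex libraries of WT-vehicle 4 and Tg2576-PMX205 2 they made up 0.113% and 0.328%, against 0.274% and 0.0286% in the hippocampus cells of those mice. Their part in the difference was not tested. Both Wls and mt-Cytb passed the threshold when cells marked as doublets were left out (-4.53 and -2.66). They also passed without the WT-vehicle 1 (-4.15 and -2.13) or the Tg2576-vehicle 1 hippocampus library (-4.20 and -2.04). With libraries of at least 3 cells mt-Cytb differed by -0.59 and did not pass. Nor did it without the WT-vehicle 4 (-1.66) or the Tg2576-PMX205 2 cortex library (-3.36). Ech1, an enzyme of fatty acid oxidation, was at 92.0, 235, 319 and 227 against 1092 and 677 CPM (+2.03, SE 0.69, edgeR adjusted p = 0.529).

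**Figure D5:**
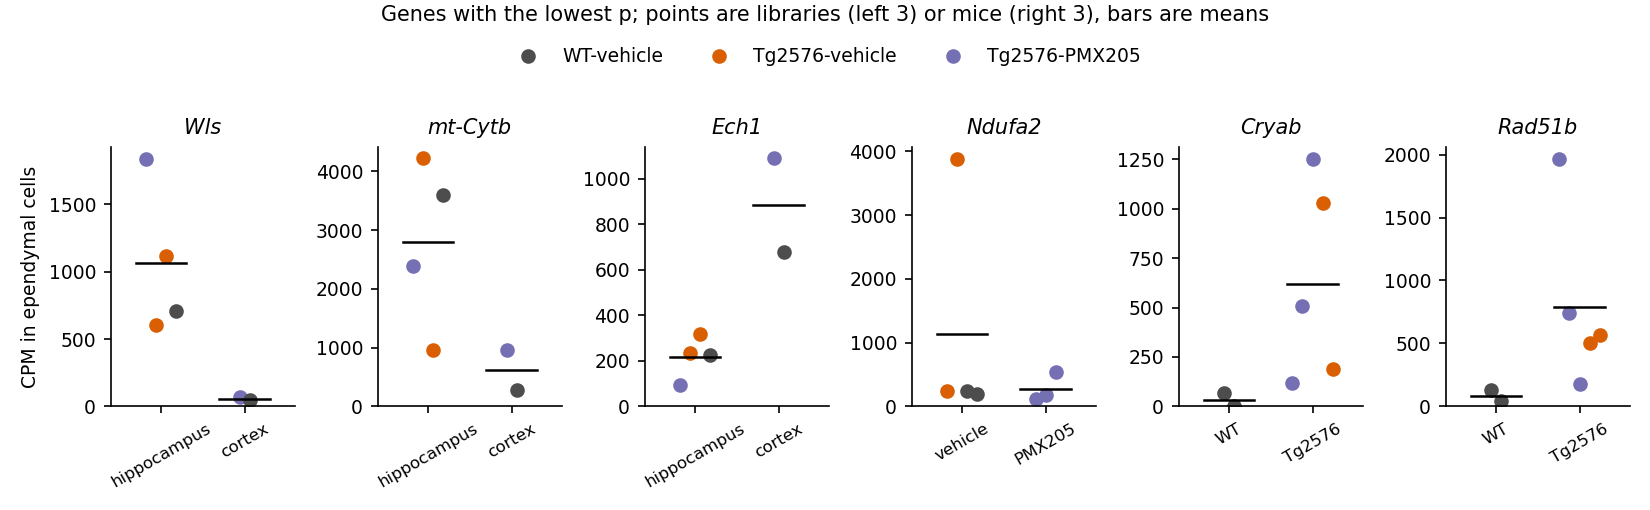
CPM in the ependymal cells of each library (region comparison) or mouse (genotype and treatment comparisons) for the 6 genes with the lowest p or a call, with 1 point a library or mouse and bars at the means. Wls lies between 603 and 1840 in hippocampus and at 68.2 and 45.1 in cortex, and Ndufa2 stands at 3887 in Tg2576-vehicle 2 and between 116 and 537 in the other mice.

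For genotype and treatment, 2 WT and 5 Tg2576 mice had at least 5 ependymal cells, and the 3 treated ones among them were all Tg2576. The fit held genotype and treatment together, so the genotype difference rests on 2 Tg2576-vehicle against 2 WT-vehicle mice and the treatment difference on Tg2576 mice. Of 543 genes none passed for Tg2576 against WT (0% called), 21 had an unadjusted p under 0.05, and DESeq2 called 0. Ndufa2, a subunit of respiratory complex I, differed by +2.98 (edgeR adjusted p = 0.0641), which fell to +0.18 without Tg2576-vehicle 2. Cryab, the small heat shock protein alpha-B crystallin, stood at 65.7 and 0 CPM in the WT mice and at 116, 508, 1252, 1031 and 190 in the Tg2576 mice (+3.86, SE 1.02, edgeR adjusted p = 0.0641), and the 4 cells of WT-vehicle 2, too few to enter the test, had 380.4 CPM. Its difference was +1.69 without Tg2576-vehicle 1 and +6.86 without WT-vehicle 1. Rad51b, a gene of DNA repair, differed by +2.37 (SE 0.82, edgeR adjusted p = 0.793). It was +3.48 without WT-vehicle 1 and +1.86 without WT-vehicle 4. The 2 cells of WT-PMX205 3, too few to enter the test, had 1969.6 CPM, with 6 of 7 UMIs in 1 cell. Tg2576-PMX205 1, the highest tested Tg2576 mouse, had 1967.7 CPM, with 41 of 51 UMIs in 1 cell.

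For PMX205 against vehicle, 1 of 543 genes passed (0.184% called), with 24 at an unadjusted p under 0.05 and 0 called by DESeq2. This was Ndufa2, lower with PMX205 (-3.10, SE 0.75, edgeR adjusted p = 0.0375). It rested on 1 cell: Tg2576-vehicle 2 was at 3887 CPM, 37 of its 41 UMIs came from 1 ependymal cell, and the other mice lay between 116 and 537. Without that mouse the difference was -0.43. C3 did not differ detectably by genotype (0.69, SE 0.59, edgeR adjusted p = 0.999) or treatment (-0.39, SE 0.55, edgeR adjusted p = 0.976).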

How the data were processed

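The files hold UMI counts per gene and barcode. The authors made these counts with kb count of kb_python (kallisto bustools) on mm10 with GENCODE annotation, and deposited them without normalization for barcodes of at least 300 UMIs. All 55341 symbols were found in GENCODE M21. The submitters' processing notes name bcl2fastq 2.18.0.12 and Seurat. The libraries were made with the SureCell WTA 3' kit on the ddSEQ system.

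The 7-gene rule was applied in all 32 libraries to 13917 barcodes, of which 5965 passed the limits on UMIs, genes and mitochondrial share. Members and gene lists were chosen with earlier results of these data known. CPM was computed over pooled cells, and a ratio used 3 UMIs as the floor where a group had none. Genes with 1 to 3 UMIs in the cells entered the counts of lower genes with their observed ratio. A gene called 4-fold higher needed more than 3 UMIs in the higher group. This requirement and the handling of groups at 0 were settled after a first look at the ratios. Barcodes were typed by at least 5 UMIs over at least 3 markers of a list and 2 times the UMIs of any other list. Named genes were those of the rule, the 25 with the highest and the 10 with the lowest ratio under set detection limits, up to 4 a list by level in the cells with the defining markers of other cell types, the 5 with the most UMIs among those 4-fold higher, and the called genes or 3 of lowest p per comparison. From these the text shows a selection, and some other members of the lists are named with their values, chosen after the values were seen. Some genes that the rule named are not reported here.

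Gene tests used edgeR 4.0.16 (filterByExpr, TMM, quasi-likelihood) in R 4.3.3, with DESeq2 1.42.0 as an alternative, and were checked on simulated data. Nothing in the sources says whether mice were processed on separate days, and p-values measure the spread between mice. Thinning to 500 UMIs used 20 draws. Scrublet (scanpy 1.11.5) served only as an alternative, removing the top 6% of each library. Tables and figures used Python 3.11.15, NumPy 2.4.6, SciPy 1.17.1, pandas 2.3.3 and matplotlib 3.10.9. Promoters came from RefSeq (GRCm38.p6) and gene positions from GENCODE M21.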

Additional observations from a re-analysis of the deposited data

Results flagged for a closer look

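Of 16 groups of 4 to 10 mice or libraries examined for a sample far from the others, 5 held one by Dixon's criterion. Its chance rate of about 1 group in 20 holds for independent, normally distributed values. The shares came from libraries of unequal size, several of them without ependymal cells. The genes had been picked for a low p in the same data, and the same Ndufa2 value entered overlapping groups. The count of 5 can therefore not be set against that rate, and it only lists samples that lay apart. In hippocampus, WT-vehicle 1 stood apart from the other WT-vehicle mice with 13.5% ependymal cells, and Tg2576-PMX205 1 from the other Tg2576-PMX205 mice with 7.23%. In cortex, Tg2576-vehicle 2 stood apart from the other Tg2576-vehicle mice with 3.70%. Ndufa2 stood at 3887 CPM in Tg2576-vehicle 2, apart both from the other vehicle mice and from the other Tg2576 mice, and 37 of its 41 UMIs lay in 1 cell.

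Among 7952 barcodes that failed the limits and entered no comparison, 20 (0.252%) also met the 7-gene rule. They held 317 to 462 UMIs (median 386), and none had over 5% mitochondrial UMIs. Of these, 11 were among 5627 cortex barcodes and 9 among 2325 hippocampus barcodes.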

How the results depend on the processing

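Counts of genes 4-fold higher ran from 928 to 1544 over the alternatives and from 1063 (without WT-vehicle 1) to 1216 when 1 mouse was left out. Genes 4-fold lower ran from 791 (without WT-vehicle 1) to 1024 when 1 mouse was left out. They numbered 190 with each mouse counted equally, where a fraction of a UMI was also added to every count. Without doublets the counts were 1184 and 940. Of 1903 recomputed log2 ratios of 119 named genes 1828 moved by less than their spread, 71 moved by more and 4 changed sign. Those 4, all against barcodes with astrocyte markers, were Csf1r (0.40), Itm2a (1.66), Abcb1a (1.62) and Vtn (0.96). Abcb1a was detected in 1 ependymal cell only.

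No share comparison passed the 0.05 threshold of its permutation test under any alternative, the lowest permutation p being 0.114. Numbers of ependymal cells, unlike shares, do not allow for how many barcodes passed in a library. Compared as numbers of ependymal cells in place of shares, cortex minus hippocampus was 0.188, Tg2576-vehicle minus WT-vehicle -2.20, Tg2576-PMX205 minus Tg2576-vehicle 0.750 and the region difference between genotypes 1.38, each of the opposite sign to the share. That last difference was also positive without doublets (0.335) and with a higher limit on UMIs (2.15). Leaving out 1 mouse at a time gave -1.61 to -0.574 for region, -0.644 to 1.07 for Tg2576-vehicle against WT-vehicle and -1.38 to 0.337 for Tg2576-PMX205 against Tg2576-vehicle (each with its sign changed without Tg2576-vehicle 2), -1.42 to -0.533 for WT-PMX205 against WT-vehicle and -1.77 to 0.464 for the region difference between genotypes. Without the pairing (no replicate block) the region p was 0.225.

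A planned replicate block over mice with at least 5 ependymal cells in both regions could not be run, since no mouse had them. With at least 3 in both, an alternative chosen after seeing the data, 5 mice were paired, and 0 of 155 genes were called. Calls by region were 2 without doublets (Wls and mt-Cytb) and 0 to 3 with 1 library left out (3 without Tg2576-vehicle 1 and 2 without WT-vehicle 1 hippocampus). Calls by genotype were 1 each with at least 3 and at least 10 cells a mouse and 0 to 2 with 1 mouse left out (2 without Tg2576-PMX205 1, 1 without Tg2576-vehicle 1). The 1 call by treatment became 0 under DESeq2, DESeq2 size factors, no filter and at least 3 cells, with Ndufa2 still at -2.91 to -3.12. The count was also 0 without doublets, with barcodes that differ at the first base merged, and in cells without microglial markers (added after seeing the data). In these last 3 settings Ndufa2 was not among the genes tested. With at least 10 cells there were 2 calls, and Ndufa2 was again not tested, nor was it without Tg2576-PMX205 3. With 1 mouse left out there were 0 to 1 (0 without any one of WT-vehicle 1, WT-vehicle 4, Tg2576-vehicle 2, Tg2576-PMX205 2 and Tg2576-PMX205 3), and that 1 was Ndufa2 without Tg2576-vehicle 1 and another gene without Tg2576-PMX205 1. The cause was not tested.

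With 109 cells, 3 UMIs in the pool correspond to 12.4 CPM, and ratios of genes below that level rest on 1 to 3 UMIs or on a bound. Only 2 cortex libraries and 2 WT mice entered the gene tests, and 7 of 16 mice had enough cells for values by mouse. The number of cells found moved with the rule, from 161 with at least 3 UMIs over 2 genes to 84 with at least 10 over 3, and was 72.35 on average after thinning each barcode to 500 UMIs.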

Other observations

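Some heat shock genes, picked after their values were seen, had a higher level in the ependymal cells and others did not. Hsp90aa1, the inducible form of the chaperone HSP90, was at 1162 against 53.3 CPM and higher in 7 of 7 mice, and Hspa2, a member of the HSP70 family, at 844 against 76.4, also in 7 of 7. Hsph1 and Hspa4l, exchange factors of HSP70, stood at 629 against 37.7 and 687 against 43.4 CPM, each in 6 of 7 mice. The stress-induced genes Hspa1a and Hspb1 were at 41.4 against 4.57 and 41.4 against 94.3 CPM, and were higher in 3 and 1 of the 7 mice.

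Nuf2, a kinetochore gene, was at 658 against 5.48 CPM and higher in 7 of 7 mice. Lbp, which encodes the binding protein for bacterial lipopolysaccharide, stood at 434 against 5.33 CPM, and Crocc, which encodes rootletin of the ciliary rootlet, at 447 against 7.91, both in 7 of 7 mice. Gm19935, a gene model without a described product, was at 1336 against 10.7 CPM and likewise higher in 7 of 7. These genes were named after their values were seen.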
